A study of Homo sapiens with 6 samples.

Results

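The genes described here are 10 regulators and marker genes of the epithelial-mesenchymal transition (EMT): the transcription factors SNAI1, SNAI2, ZEB1, ZEB2, TWIST1 and TWIST2, the cadherins CDH2 and CDH11, the epithelial adhesion molecule EPCAM and the matrix protein fibronectin, FN1. They were chosen by name, and rows of the count table were taken where the gene symbol equalled one of the 10 names. Of the 10, 8 had a row, among 16571 gene symbols in all. FN1 and CDH11 had no row and were not analysed here. The table held 0 rows that were at 0 in every library, and HDAC2, CTNND1 and PRMT5, which most cells express and which were chosen afterwards, had no row either, so the lack of a row was not read as a count of 0.

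RNA-seq was run on the human ovarian cancer line A2780, with 3 libraries in each of 2 groups. Cells of the pGIPZ-NC group carried a control construct of the short hairpin vector pGIPZ, and those of the shUSP39 group a hairpin that targets USP39, which belongs to the spliceosome. Both groups were infected with lentivirus, and no other treatment or time point is given by the labels. The study states that its stable lines were selected with puromycin after infection. The labels do not say which of the hairpin sequences of the study the shUSP39 cells carried, nor whether the cells were a pool or a clone, and the groups were not checked against the targeted gene, since the row of USP39 was not analysed here.

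In EMT, epithelial cells lose their contacts and polarity and take on the shape and motility of mesenchymal cells, a programme used in development and taken up again in carcinoma. The SNAI and ZEB zinc-finger proteins and the TWIST basic helix-loop-helix proteins bind E-boxes, short DNA motifs found in the promoter of CDH1, the gene of E-cadherin, and repress it, while N-cadherin (CDH2), cadherin-11 (CDH11) and fibronectin (FN1) are typically gained and EPCAM is typically lost. The study probed EMT by western blot of a few of these proteins, after knockdown in OVCAR8 and CAOV3 and after USP39 overexpression in A2780. The question put to the count table here was how the messenger RNAs of the regulators themselves differed after knockdown in A2780.

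Of the 8 genes with a row, 6 had enough counts to be tested, and 3 of these 6 (50%) had a Benjamini-Hochberg adjusted p under 0.05 over 10695 genes in the quasi-likelihood test of edgeR. SNAI2 (Slug) fell 7.46-fold in shUSP39 cells, ZEB2 fell to 0.665 of its control level and SNAI1 (Snail) rose 1.45-fold. TWIST1, TWIST2 and CDH2 did not pass, and ZEB1 and EPCAM had too few counts for the test. Across all tested genes 33.6% passed in either direction, 16.1% higher and 17.5% lower, so the 3 of 6 stand against a broad background of change and rest on few genes. SNAI2 was the only one of the 6 that also changed more than 2-fold. Among all tested genes 2.28% fell by that much and passed.

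The libraries held between 28294819 and 32939264 counts. Levels are given as CPM, counts scaled to the same library total, and levels of different genes were compared only after division by transcript length (RPKM). The shUSP39 libraries 2 and 3 stood apart from the other 4 in low counts. Counts were present for 15446 and 14890 genes in them, against 12662 to 12819 in the other 4. Of 2773 genes at 0 in all pGIPZ-NC libraries, shUSP39 replicates 1, 2 and 3 had a count for 333, 2277 and 1864, with means of 0.559, 3.14 and 2.02 counts per gene. The log2 fold changes of the rare tested members SNAI2, TWIST1 and CDH2 are therefore also given with shUSP39 replicate 1 alone.

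Per length, 2 of the 8 genes stood far above the rest. In pGIPZ-NC cells TWIST2 was highest at 10.97 ± 1.69 RPKM (mean ± SD, n = 3), followed by SNAI1 at 8.09 ± 0.914 RPKM. Their ranges over libraries, 9.67 to 12.9 and 7.36 to 9.12 RPKM, did not overlap. SNAI2 at 0.566 ± 0.0836 RPKM and TWIST1 at 0.511 ± 0.0251 RPKM came next and overlapped each other, and ZEB2 at 0.397 ± 0.0228 RPKM lay below both in every library. CDH2 at 0.222 ± 0.143 RPKM, EPCAM at 0.0470 ± 0.0443 RPKM and ZEB1 at 0.0382 ± 0.0395 RPKM closed the order, with CDH2 overlapping EPCAM and EPCAM overlapping ZEB1. These are descriptions with no test, and the levels of genes with several transcripts may be too low, since how reads shared by transcripts were counted is not given in the sources used here. The counts of both TWIST2 transcripts were divided by a single length, 901 bases. The place of TWIST2 above SNAI1 therefore rests on that length.

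In shUSP39 cells TWIST2 at 13.01 ± 1.18 RPKM and SNAI1 at 11.9 ± 0.373 RPKM were again the highest, and now overlapped each other. SNAI2 moved from the third to the seventh place, at 0.0762 ± 0.0697 RPKM. TWIST1 stood at 0.401 ± 0.317 RPKM, ZEB2 at 0.269 ± 0.0456 RPKM, CDH2 at 0.175 ± 0.0614 RPKM, EPCAM at 0.0862 ± 0.0577 RPKM and ZEB1 at 0.0475 ± 0.0188 RPKM. Below SNAI1 the range of EPCAM lay under that of CDH2, and the other neighbours in this order overlapped.

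**Figure D1:**
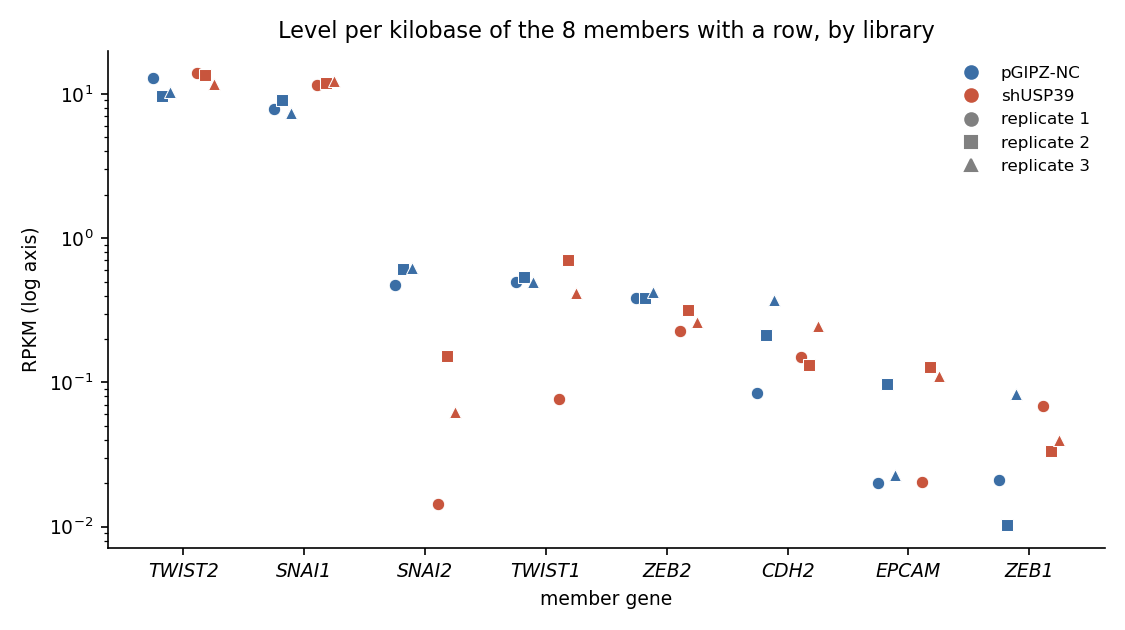
Level per kilobase (RPKM, log axis) of the 8 genes with a row in each library; blue is pGIPZ-NC, red is shUSP39, and the marker shape gives the replicate. TWIST2 and SNAI1 lie above 7 RPKM in all 6 libraries, and the other 6 genes lie below 1 RPKM in all of them.

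SNAI2, on chromosome 8 (GRCh37, 49830157 to 49834299, minus strand), encodes Slug, a zinc-finger repressor of E-cadherin that also marks migrating neural crest cells. It had 33, 44 and 38 counts in pGIPZ-NC replicates 1, 2 and 3, and 1, 10 and 4 counts in shUSP39 replicates 1, 2 and 3. Every shUSP39 library lay below every pGIPZ-NC library, and the lowest control count was more than 3 times the highest knockdown count. In CPM, the control mean was 1.23 ± 0.182 and the knockdown mean 0.166 ± 0.152 (SD, n = 3 each).

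The log2 fold change of SNAI2 was -2.90 (SE 0.59, 95% interval -4.11 to -1.69, edgeR adjusted p = 0.000295). The 15 counts of the 3 shUSP39 libraries together gave a pooled level between 0.0918 and 0.271 CPM (95% exact Poisson interval, which covers counting error only), against 1.02 to 1.48 CPM from the 115 counts of the controls. Among the knockdown libraries replicate 1 was lowest and replicate 2 highest, the same order as for the genes at 0 in the controls. Whether the extra low counts of replicates 2 and 3 took part in these values was not tested. With shUSP39 replicate 1 alone, whose single value is assumed to vary like the other libraries, the log2 fold change was -5.15. It lay between -3.87 and -2.41 when each library was left out in turn, with adjusted p up to 0.00461.

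SNAI2 lies among the rarely counted genes, few of which passed. Of 964 tested genes with a mean of 0.5 to 1 CPM over the 6 libraries, 13.9% passed in either direction and 5.71% fell, and 18 fell at least as far as SNAI2, itself among them. Over all tested genes, 72 had a lower log2 fold change than SNAI2 and passed. The genes whose log2 CPM followed SNAI2 most closely over the 6 libraries were PRKACA (Pearson's r = 0.999), a catalytic subunit of protein kinase A, and CAMSAP1 (r = 0.999), a microtubule minus-end protein. This is a description over 6 libraries that share the group difference, and 672 genes had an r above 0.9.

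SNAI1, on chromosome 20 (48599517 to 48605423, plus strand), encodes Snail, the paralog of Slug and a direct repressor of E-cadherin. It had 429, 512 and 355 counts in the pGIPZ-NC libraries and 628, 611 and 618 in the shUSP39 libraries. The knockdown libraries were all higher and lay close together, while the control libraries spread more widely. The mean level of SNAI1 was 13.8 ± 1.56 CPM in the controls and 20.3 ± 0.637 CPM after knockdown (SD, n = 3 each).

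The log2 fold change of SNAI1 was 0.53 (SE 0.10, 95% interval 0.31 to 0.75, edgeR adjusted p = 0.000221). It kept its direction and stayed past the threshold in all 17 alternatives in which it was fitted, between 0.46 and 0.62. The rise of SNAI1 stayed under the 2-fold limit. The 95% intervals of SNAI1 and SNAI2 lay on opposite sides of 0. The difference between the changes of these 2 genes was not tested.

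TWIST2, on chromosome 2 (239756673 to 239832230, plus strand), encodes Dermo-1, a basic helix-loop-helix factor of dermal and other mesenchyme. It had 374, 287 and 264 counts in pGIPZ-NC and 397, 368 and 309 in shUSP39. The groups overlapped, since pGIPZ-NC replicate 1 lay above shUSP39 replicate 3. Levels were 9.88 ± 1.52 and 11.7 ± 1.06 CPM, and the log2 fold change of 0.22 (SE 0.13, 95% interval -0.05 to 0.50) did not pass (edgeR adjusted p = 0.222).

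TWIST2 was also the single gene of the 8 with more than 1 transcript above the filter. NM_001271893.3 had 195, 110 and 123 counts in the pGIPZ-NC libraries and 205, 207 and 121 in the shUSP39 libraries. NM_057179.2 had 179, 177 and 141 counts in the pGIPZ-NC libraries and 192, 161 and 188 in the shUSP39 libraries. Both transcripts overlapped between groups and were close to each other in level.

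The first transcript made up 45.7% ± 6.95 of the control and 49.0% ± 8.84 of the knockdown counts of TWIST2 (SD, n = 3 each). Its log2 fold change was 0.32 (SE 0.22), and that of the second 0.13 (SE 0.16), with edgeR adjusted p of 0.302 and 0.604. Neither passed, against 29.3% of 12553 tested transcripts. The shares did not differ past the threshold in edgeR's test of transcript usage (adjusted p = 0.792), a test that 3.69% of 1628 genes passed. As for the other tested genes, SNAI1, SNAI2, TWIST1, ZEB2 and CDH2 each had 1 transcript row, so no usage could be measured in them.

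TWIST1, on chromosome 7 (19060614 to 19157259, minus strand), encodes the paralog of TWIST2, a regulator of mesoderm and cranial neural crest. It had 26, 29 and 23 counts in pGIPZ-NC and 4, 35 and 20 in shUSP39. The controls lay close together, whereas the knockdown libraries reached from far below to above them. Levels were 0.833 ± 0.0409 and 0.654 ± 0.516 CPM.

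The counting intervals of TWIST1 in shUSP39 replicates 1 and 2 (95% exact Poisson, 0.0343 to 0.322 and 0.806 to 1.61 CPM) did not overlap, so these 2 libraries of 1 group differed by more than counting error. The log2 fold change of -0.38 (SE 0.54, 95% interval -1.49 to 0.73) did not pass (edgeR adjusted p = 0.641). Without shUSP39 replicate 1 it was 0.11 (adjusted p = 0.898), and with that replicate alone against the controls it was -2.71 (adjusted p = 0.0415). The direction for TWIST1 therefore rested on a single library. The order of the 3 knockdown libraries matched that of the genes at 0 in the controls, and the part of those extra counts was not tested.

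ZEB2, on chromosome 2 (145121931 to 145278624, minus strand), encodes SIP1, a zinc-finger and homeodomain repressor that binds SMAD proteins. It had 114, 118 and 111 counts in pGIPZ-NC and 67, 89 and 71 in shUSP39. The groups did not overlap, with levels of 3.68 ± 0.211 and 2.49 ± 0.423 CPM (SD, n = 3 each). A log2 fold change of -0.59 (SE 0.22, 95% interval -1.05 to -0.13) passed narrowly (edgeR adjusted p = 0.0434).

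The direction of ZEB2 was the same in all 16 alternatives, but the call was lost in 10 of them. Left out in turn, pGIPZ-NC replicates 1, 2 and 3 gave adjusted p of 0.0695, 0.0804 and 0.0994, and shUSP39 replicates 1 and 3 gave 0.146 and 0.0951. Without shUSP39 replicate 2 the log2 fold change was -0.73 and the adjusted p was 0.0327.

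ZEB1, the paralog of ZEB2, lies on chromosome 10 (31607424 to 31818742, plus strand) and was barely counted. It had 4, 2 and 14 counts in pGIPZ-NC and 13, 6 and 7 in shUSP39, or 0.227 ± 0.234 and 0.282 ± 0.112 CPM. The groups overlapped, and the exact permutation test over libraries gave p = 0.7 (two-sided, n = 3 each, smallest possible p 0.1). A difference was not detectable at this depth. RefSeq lists 41 transcripts for ZEB1, of which 2 had a row, so its level may hold only reads that the other transcripts do not share. The low counts do not show that the gene is silent.

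The 2 tested factors with a promoter window in RefSeq are shown because one of them fell and the other did not pass. Each window runs from 250 bases before to 50 bases after the start of transcription on build GRCh38.p14, and capitals mark any match to the general E-box CANNTG, which reads the same on both strands. The ZEB2 window is chr2:144520070-144520369 (minus strand) and the TWIST2 window is chr2:238847835-238848134 (plus strand).
ZEB2 promoter: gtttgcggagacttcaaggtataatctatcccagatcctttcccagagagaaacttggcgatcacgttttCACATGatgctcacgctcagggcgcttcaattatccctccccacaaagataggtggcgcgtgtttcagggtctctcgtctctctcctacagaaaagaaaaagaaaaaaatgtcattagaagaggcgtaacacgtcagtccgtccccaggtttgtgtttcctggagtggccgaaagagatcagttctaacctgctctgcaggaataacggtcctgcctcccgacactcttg
TWIST2 promoter: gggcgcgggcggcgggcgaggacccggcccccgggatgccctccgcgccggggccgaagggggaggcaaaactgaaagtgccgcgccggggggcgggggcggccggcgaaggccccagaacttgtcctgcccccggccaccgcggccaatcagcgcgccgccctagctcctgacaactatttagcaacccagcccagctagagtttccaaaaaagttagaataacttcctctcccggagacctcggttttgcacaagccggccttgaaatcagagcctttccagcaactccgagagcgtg
ZEB2 held 1 match, CACATG, whose first base lies at -180, and TWIST2 held 0. Of 35116 windows of 300 bases in the table, 68.7% held CANNTG and 20.6% held the narrower form CAGGTG, or CACCTG on the other strand. Neither printed window held the narrower form. Of the other genes, ZEB1 had 7 windows, 2 with the narrower form, CDH2 had 2 windows, 0 with it, and FN1 had 1 window without it. SNAI1, SNAI2, TWIST1, CDH11 and EPCAM had no window. These matches are descriptions of letters and not of binding.

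CDH2, on chromosome 18 (25512843 to 25757910, minus strand), encodes N-cadherin, the calcium-dependent adhesion molecule of neural and mesenchymal cells. It had 11, 28 and 42 counts in pGIPZ-NC and 19, 16 and 29 in shUSP39. The controls alone spread from 11 to 42 counts and enclosed all 3 knockdown libraries. Levels were 0.892 ± 0.573 and 0.704 ± 0.246 CPM, and the log2 fold change of -0.35 (SE 0.50, 95% interval -1.39 to 0.68) did not pass (edgeR adjusted p = 0.643). With shUSP39 replicate 1 alone it was -0.58 (adjusted p = 0.661). Without pGIPZ-NC replicate 3 it was 0.20, so the direction for CDH2 rested on that library.

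EPCAM, on chromosome 2 (47572297 to 47614740, plus strand), encodes an adhesion molecule of simple epithelia that is lost in EMT. It had 1, 5 and 1 counts in pGIPZ-NC and 1, 6 and 5 in shUSP39, or 0.0727 ± 0.0685 and 0.133 ± 0.0893 CPM. The groups overlapped, and the exact permutation test gave p = 0.3 (two-sided, n = 3 each, smallest possible p 0.1). In shUSP39 the counts of EPCAM too were lowest in replicate 1 and highest in replicate 2, and this was not tested.

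Between the groups, 3 of the 6 tested genes (SNAI1, SNAI2 and ZEB2) had CPM values that did not overlap, and 44.5% of all tested genes did so. The median log2 fold change was -0.37 over the 6, beside 0.01 over all tested genes. That median lies between the values of TWIST1 and CDH2. Neither of them passed, and each turned direction when a single library was left out, so it was not read as a shift of the 6.

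**Figure D2:**
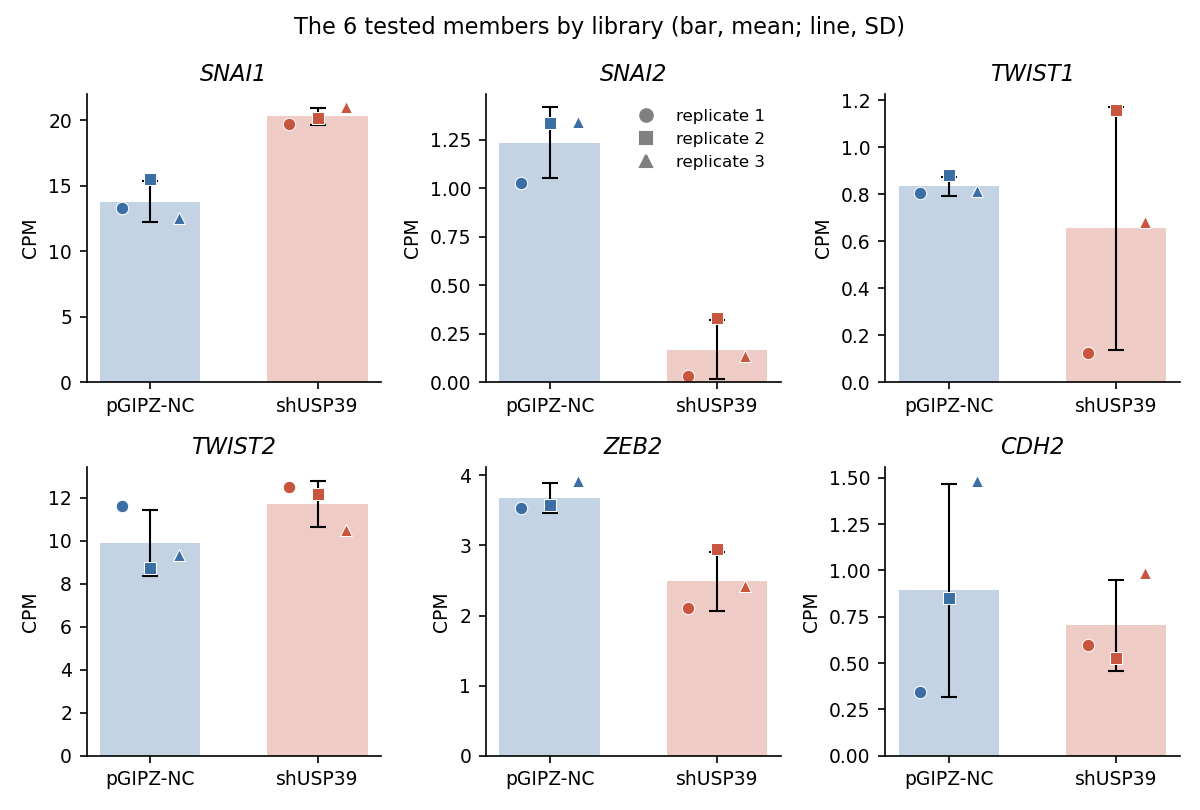
Level in CPM of the 6 tested genes in each library (points), with the mean (bar) and SD (line) of the 3 libraries of each group; each panel has its own axis from 0. SNAI2 and ZEB2 lie lower and SNAI1 higher in all 3 shUSP39 libraries, while TWIST1 and CDH2 spread widely within a group.

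**Figure D3:**
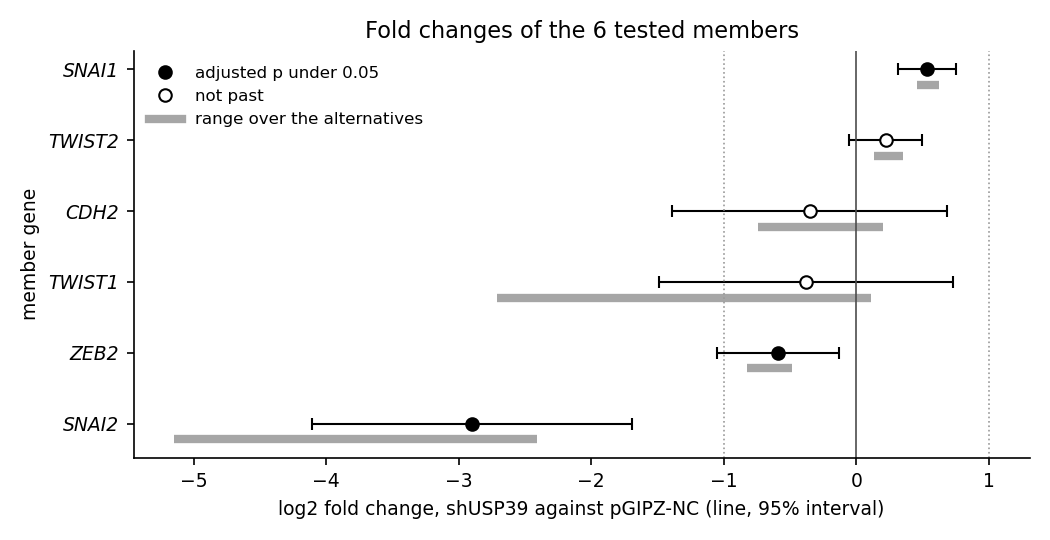
Log2 fold change of shUSP39 against pGIPZ-NC for the 6 tested genes, with 95% intervals (black lines) and the range over the alternatives (grey bars); filled points passed the adjusted p of 0.05 and dotted lines mark a 2-fold change. The grey bars of TWIST1 and CDH2 cross 0, and those of SNAI1, SNAI2, ZEB2 and TWIST2 do not.

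The genes around these regulators were then counted from lists of related genes, and only the members of each list with enough counts were tested. The share to set beside each list is that over all tested genes, 33.6% past the threshold, 16.1% higher and 17.5% lower. Among 20 other transcription factors linked to EMT, 7 were tested, 2 rose and 2 fell. The largest change was in HMGA2, an architectural chromatin factor that the study itself singled out in these libraries, which had 17216, 16782 and 14323 counts in the controls and 7311, 6457 and 6131 after knockdown, a log2 fold change of -1.27 (SE 0.04, edgeR adjusted p = 4.68e-19). The median of the list was 0.06.

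Of 20 other cadherins, 5 were tested, 1 rose and 2 fell. CDH6, the kidney and fetal cadherin K-cadherin, fell from 3.34 ± 0.996 to 0.461 ± 0.261 CPM, with a log2 fold change of -2.88 (SE 0.37, edgeR adjusted p = 4.94e-07), a size close to that of SNAI2. It had 111, 141 and 65 counts in pGIPZ-NC and 9, 23 and 10 in shUSP39. CDH1, the target that SNAI and ZEB factors repress, had 0, 0 and 0 counts in pGIPZ-NC and 0, 1 and 0 in shUSP39 and could not be tested.

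Of 11 catenins and cadherin-bound proteins, 6 were tested and 0 passed in edgeR, 0 at an unadjusted p under 0.05, and 0 each in DESeq2 and limma-voom. CTNNB1, beta-catenin, stood at 32.4 ± 1.54 CPM in the controls and 34.1 ± 2.92 CPM after knockdown, with a log2 fold change of 0.05 (95% interval -0.12 to 0.21, edgeR adjusted p = 0.696).

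Of 31 mesenchymal cytoskeleton and matrix genes, 23 were tested, 12 fell and 4 rose (69.6% past the threshold), and the median log2 fold change was -0.20. Over all tested genes 33.6% passed, but fewer did at low levels (13.9% at 0.5 to 1 CPM). The list holds very abundant genes such as VIM, so its share was not read as particular to mesenchymal genes. The proteoglycans DCN (log2 fold change -3.81) and LUM (-3.63), the ectonucleotidase NT5E (-2.92) and the calcium-binding protein S100A4 (-1.36) were among those that fell and reached 1 CPM in one of the groups. NT5E fell from 139, 123 and 78 counts to 16, 15 and 13 counts. The 4 that rose, named after their values were seen, were CALD1, an actin-binding protein (log2 fold change 1.17, edgeR adjusted p = 4.67e-07), the matricellular protein CCN1 (0.83), the surface protein THY1 (0.68) and the actin-binding protein TAGLN (0.54). VIM, the intermediate filament vimentin, was at 11186 ± 48.7 and 10875 ± 46.3 CPM, a log2 fold change of -0.07 (edgeR adjusted p = 0.0228). The call for VIM was lost in edgeR under upper-quartile scaling (-0.02, adjusted p = 0.485) and with library size only (-0.04, adjusted p = 0.145). It held in DESeq2 (adjusted p = 0.0138) and in 2 of the 6 edgeR fits with a library left out.

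The fibroblast markers DCN, LUM, PDGFRA, FAP and COL1A1, all 5 of them also in the mesenchymal list, summed to 11.8 to 14.02 CPM in pGIPZ-NC and 6.57 to 7.58 CPM in shUSP39. LUM went from 4.68 ± 1.10 to 0.382 ± 0.246 CPM. COL1A1, which made up the largest part of these sums, was at 7.42 ± 1.33 and 6.58 ± 0.607 CPM and did not pass (log2 fold change -0.20, edgeR adjusted p = 0.38). The sums are not corrected for transcript length. PDGFRA and FAP were at 0 in all pGIPZ-NC libraries. In bulk RNA, fewer cells of a type and less RNA per cell cannot be told apart.

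Of 34 epithelial genes, 16 were tested, 4 fell and 2 rose. KRT19, a keratin of simple epithelia, fell from 24.2 ± 2.11 to 1.98 ± 0.258 CPM (log2 fold change -3.64, edgeR adjusted p = 3.51e-17). DSP, a desmosome protein, fell (-4.60), and so did the tight junction gene CLDN1 (-1.75), while CLDN4, another claudin, rose (1.51, adjusted p = 0.035) from 11, 35 and 2 to 37, 60 and 37 counts, a call that held in 2 of the 6 fits with a library left out. The epithelial genes thus moved in both directions, with a median of -0.02.

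Of 28 corepressors and stability regulators of the SNAI, ZEB and TWIST proteins, 24 were tested, 4 rose and 2 fell. SIAH1, a ubiquitin ligase, was among those that rose (0.54), as was AJUBA (0.41), a LIM protein that binds Snail, and PAK1, a kinase that phosphorylates Snail, fell (-1.29, edgeR adjusted p = 0.0311), a call that held in 1 of the 6 fits with a library left out. SIAH1 and AJUBA were named after their values were seen. Of 8 fibronectin receptors and partners, 4 were tested, 1 rose and 1 fell, and under upper-quartile scaling 2 rose and 0 fell. Of 10 partners of EPCAM, 6 were tested, 1 rose and 2 fell (1 under upper-quartile scaling), with the largest change in the tetraspanin TSPAN8 (-2.72, edgeR adjusted p = 1.4e-05).

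**Figure D4:**
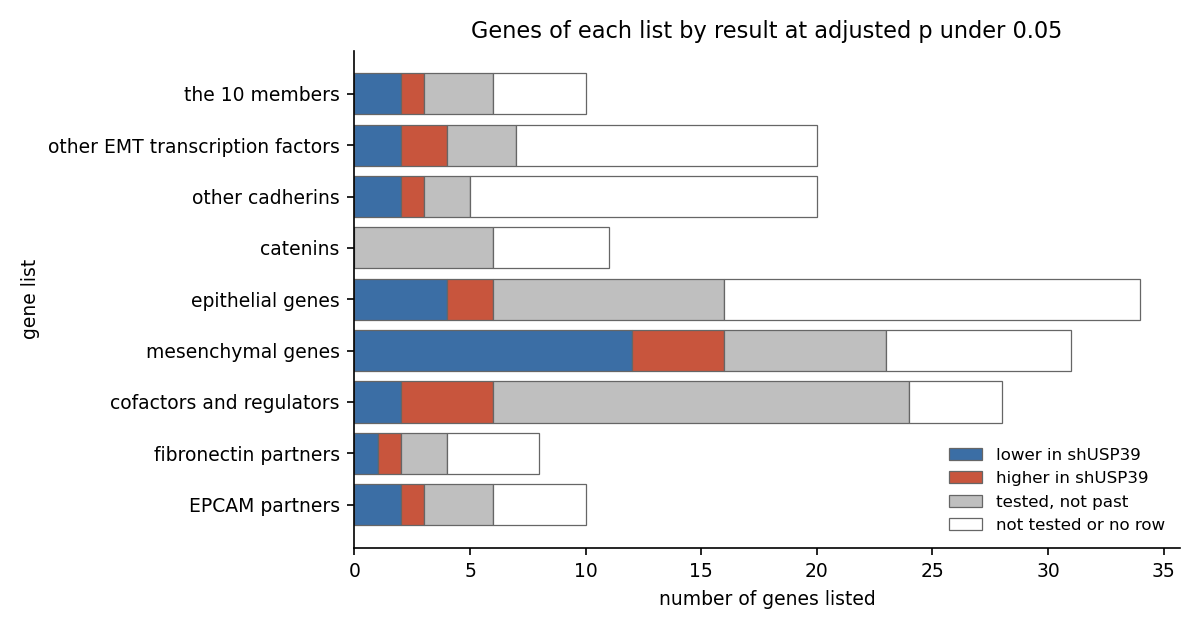
Number of genes in each list that were lower (blue), higher (red) or not past an adjusted p of 0.05 (grey) in shUSP39, with genes not tested or without a row in white. The mesenchymal list, which holds very abundant genes, has the most genes that fell (12 of 23 tested), and the catenin list has 0 in either direction. Over all tested genes 17.5% were lower and 16.1% higher. Under upper-quartile scaling the fibronectin partners counted 2 higher and 0 lower, and the EPCAM partners 1 lower.

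The label of a serous ovarian cancer line was set against 8 markers of serous or Mullerian epithelium, of which 6 had a row. They summed to 0.182 to 0.745 CPM in pGIPZ-NC, 0.692 CPM in shUSP39 replicate 1, and 5.39 and 3.06 CPM in replicates 2 and 3. PAX8, the defining factor of that lineage, had 5, 1 and 0 counts in pGIPZ-NC and 0, 1 and 6 in shUSP39, and MSLN had 0 in every pGIPZ-NC library. PAX8 and MSLN were thus at or near 0 in all 6 libraries, and the higher sums of shUSP39 replicates 2 and 3 came mostly from MUC16, with 150 and 71 counts. RefSeq lists 4 transcripts for PAX8 and 3 for MSLN, and their levels may be too low where these share reads. The markers WT1 and EMX2 had no row, which was not read as a count of 0. Leukocyte markers summed to 8.96 to 12.2 CPM over all 6 libraries, nearly all of it CD68, and endothelial markers to 0.389 to 0.434 CPM in pGIPZ-NC and 0.503, 2.05 and 1.29 CPM in shUSP39 replicates 1, 2 and 3. Their part in the values of EPCAM, TWIST1 and SNAI2 was not tested.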

How the data were processed

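The sample labels gave each library's group and replicate number, 3 pGIPZ-NC and 3 shUSP39 libraries. The series calls them biological triplicates, but what was separate between them is not stated, so p-values measure the spread between these libraries. The authors deposited raw read counts per RefSeq transcript. The submitters' processing notes name HISAT2, Cufflinks and hg19, with no role or version. The counter, and the use of strand and shared reads, are not given in the sources used here, and reads shared between transcripts, antisense genes or paralogs may be split or lost. Signal columns deposited by the authors hold group means of scaled counts, and their fold ratio, p-value and q-value columns hold the authors' own comparison. None of these was used.

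Counts were summed per gene symbol (21368 rows to 16571 symbols), of which 46 date-like symbols were restored by accession and 1 was not. edgeR 4.0.16 in R 4.3.3 was run on all 6 libraries with filterByExpr, TMM scaling and robust quasi-likelihood, group only. Benjamini-Hochberg adjustment ran over all tested genes. Transcripts were fitted alike, and usage with diffSpliceDGE. On counts simulated for this comparison, of 193 changed genes among 10546 fitted, 92.2% were recovered, with 16 false calls. All planted changes were 2-fold or larger and few genes were changed. The share recovered therefore does not apply to smaller changes, such as those of SNAI1, ZEB2, TWIST1, TWIST2 and CDH2. CPM used library totals, and RPKM the MANE Select length in GENCODE release 44 on GRCh37. Promoter windows and transcript numbers came from RefSeq on GRCh38.p14. Within groups, chi-square per degree of freedom was 4.63 to 7.52, so no library was a copy of another. Poisson intervals cover counting error only, and intervals of fold changes come from the edgeR fit.

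Alternatives were other scalings, filters and tests (DESeq2 1.42.0, limma-voom of limma 3.58.1), a replicate block, libraries left out, the highest transcript per gene, shUSP39 replicate 1 alone and, chosen after seeing the data, genes with 1 RefSeq transcript. The members, lists and tests were chosen with earlier results of these data known. The rule for named genes took all members, at most 5 genes per list past an adjusted p of 0.05, 2-fold and 1 CPM, the blotted markers CDH1, CTNNB1 and VIM, and for a 2-fold member the 2 most similar genes. Genes named outside it, other than cell type markers, are marked as chosen after their values were seen. 1 gene that this rule names is not reported here.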

Additional observations from a re-analysis of the deposited data

How the results depend on the processing

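SNAI1 and SNAI2 kept their direction and their side of the threshold under every alternative in which they were fitted (17 and 16), with log2 fold changes of 0.46 to 0.62 and -5.15 to -2.41. ZEB2 kept its direction but missed the threshold under upper-quartile scaling (-0.54, adjusted p = 0.0646), library size only (-0.56, 0.0552), the DESeq2 Wald test (-0.59, 0.0948), no filter (-0.60, 0.0581) and shUSP39 replicate 1 alone (-0.82, 0.0791). Leaving out each library in turn moved ZEB2 between -0.73 and -0.49. The same moved TWIST1 between -1.08 and 0.11 and CDH2 between -0.74 and 0.20, where both turned direction without passing, and with shUSP39 replicate 1 alone TWIST1 was -2.71 and passed. The cause was not tested. The number of members past the threshold was 2 or 3 with each library left out. TWIST2 did not pass under any of 16 alternatives.

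With each library left out, the counts of list genes that rose lay between 1 and 2 for the other transcription factors, 0 and 1 for the other cadherins and 1 and 3 for the epithelial genes, and those that fell between 1 and 2 for the corepressors, 0 and 1 for the fibronectin partners and 1 and 2 for the EPCAM partners. With shUSP39 replicate 1 alone, an alternative added for the lists after seeing the data, the counts were 1 higher, 0 higher, 1 higher, 1 lower, 0 lower and 1 lower in that order, and 2 mesenchymal genes were higher. Under upper-quartile scaling 2 fibronectin partners were higher and 0 lower, and 1 EPCAM partner was lower. That scaling raised the share of genes past the threshold that were higher from 48.0% to 58.0%, and without a filter the median log2 fold change over all genes was 0.12. SNAI2 and TWIST1 were not fitted where 10 counts were required in every library.

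Whether the replicate numbers pair the samples is not settled by these values. Same-numbered libraries correlated at 0.192, 0.0345 and 0.0675 over genes, after the mean of each group was taken off. The pair numbered 1 was the highest of all pairs, and pGIPZ-NC replicate 1 correlated at -0.0738 and -0.13 with shUSP39 replicates 2 and 3. Both pGIPZ-NC replicate 3 and pGIPZ-NC replicate 2 (0.0714) correlated best with shUSP39 replicate 3. With a replicate block, 3981 genes passed, against 3598, and ZEB2 was -0.60 (adjusted p = 0.0445). The block changed no call among the members and moved no list count by over 1.5 times. Rare genes (SNAI2, TWIST1, CDH2, ZEB1 and EPCAM) are limited by depth, and 3 libraries a group limit every test.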

Other observations

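MUC16, the gene of the CA125 antigen used as a serum marker of ovarian cancer, had 5, 1 and 1 counts in the pGIPZ-NC libraries and 6, 150 and 71 in shUSP39 replicates 1, 2 and 3. It did not reach the count filter, and like ST14, KRT8 and KRT18 it was named after its values were seen. ST14, an epithelial membrane protease, had 1, 0 and 1 counts in pGIPZ-NC and 0, 15 and 24 in shUSP39. Both were high in the same 2 knockdown libraries that had more genes with a count.

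The type I keratin KRT18 and the type II keratin KRT8, which pair in simple epithelia, differed in direction. KRT18 had 711, 676 and 676 counts in pGIPZ-NC and 1017, 932 and 1075 in shUSP39 (log2 fold change 0.56, edgeR adjusted p = 1.51e-05), and KRT8 had 28, 37 and 26 counts against 3, 0 and 0. The difference between them was not tested, and the level of KRT8 may be too low where its transcripts share reads.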
